A study of Homo sapiens with 6 samples.

Results

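The integrated stress response factors and regulators described here are 10 human genes, the transcription factors *ATF4*, *ATF5*, *ATF3*, *CEBPB*, *CEBPG* and *DDIT3* and the regulators *TRIB3*, *CHAC1*, *PPP1R15A* and *DDIT4*. They were chosen by name, as the genes that carry these current symbols in the count tables. That rule uses no measured value, but the genes and the related lists below were chosen with earlier results of these data known. All 10 were found once among the 58884 Ensembl genes of the tables. All 10 were among the 15001 genes that passed a filter on low counts. RNA-seq was performed on HSC-4, an established cell line from a human squamous cell carcinoma of the mouth, in 3 libraries labelled control and 3 libraries from cells given DAPT. DAPT is an inhibitor of γ-secretase, the protease that frees the intracellular domain of Notch receptors, and the cells received 50 μM for 24 h. The study's methods give DMSO, the solvent of DAPT, to the control cells for the same time, whereas the count columns of these libraries bear the letters GM, which the labels leave unexplained. If the controls had no DMSO, solvent and inhibitor cannot be told apart. All values therefore belong to 1 cell line, 1 dose and 1 time point, and neither labels nor methods say whether the replicates were separate cultures, so that p-values measure the spread between these libraries, which may be technical.

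The integrated stress response begins when a kinase phosphorylates the α subunit of the translation initiation factor eIF2 upon amino acid shortage, unfolded protein in the endoplasmic reticulum, double-stranded RNA or mitochondrial and heme stress. General translation then declines, while mRNAs with particular upstream open reading frames, *ATF4* the best known among them, are translated more. ATF4 dimerizes with other basic leucine zipper proteins and turns on genes of amino acid supply and redox balance, together with *DDIT3*, which encodes CHOP, and with feedback regulators that restrain ATF4 or restore eIF2. Read counts measure the mRNA of these genes, and neither eIF2 phosphorylation nor protein was measured in these libraries.

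The libraries held between 12276313 and 16317672 counts, so that 3 counts, taken as the smallest signal, equalled 0.184 to 0.244 CPM, the unit of counts relative to library size. Levels below are CPM after TMM scaling, which sets the libraries to a common size. The Notch target gene *HES1* fell with DAPT (log2 fold change -0.77). Markers of squamous epithelium (8 genes) summed to 5795 to 5943 CPM in the controls and 3911 to 3994 CPM with DAPT. With DAPT 5 of the 8 were lower, the keratin genes *KRT5*, *KRT14*, *KRT6A* and *KRT17* and the gene *TP63*. *CDH1*, which encodes E-cadherin, was higher. *KRT14* was low, at 2.98 to 3.54 CPM in the controls, and held 0 reads in DAPT replicate 2. Markers of blood and endothelium (8 genes) summed to at most 3.40 CPM in any library, 6 of them stayed under 1 CPM in all libraries, and the T cell marker *CD3E* was at 0 throughout. Control replicate 1 stood apart. All 8 of 8 fibroblast markers were highest there, and their sum was 580 CPM, against 57.4 and 58.5 CPM in the other controls and 50.0 to 55.4 CPM with DAPT. The collagen gene *COL1A1* held 274 CPM there and 48.3 to 54.0 CPM elsewhere, and *COL1A2* 215 CPM there and at most 2.02 CPM elsewhere. *VIM*, which encodes vimentin and was chosen after its values were seen, was at 240 CPM there and at most 2.24 CPM in every other library. Of the genes described below, those whose call or direction changed without this library are given both ways, as are the counts of the gene lists that changed. Among the DAPT libraries, replicate 1 differed most from the rest, with a chi-square per gene of 4.08 and 3.90 against replicates 2 and 3, which differed from each other by 1.81.

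With DAPT, 9 of the 10 genes were higher at an adjusted p under 0.05 (edgeR quasi-likelihood test, Benjamini-Hochberg adjustment over all 15001 genes), and none was lower. Among all genes tested, 17.2% were higher and 18.0% lower by the same rule. The regulators *CHAC1* and *TRIB3* rose most, by 4.20-fold and 3.50-fold, followed by *DDIT3* (2.38-fold) and *PPP1R15A* (2.07-fold). These were the 4 genes called higher at 2-fold or more, as were 0.600% of all genes tested, although without DAPT replicate 1 *PPP1R15A* was just under that limit (log2 fold change 0.996). *CEBPG* rose 1.76-fold, *ATF3* 1.61-fold, and *ATF4* and *ATF5* 1.43-fold each. *DDIT4* rose by 1.12-fold, and *CEBPB* did not pass the test. In 8 of the 10 genes every DAPT library lay above every control library, which was the case in 23.6% of all genes tested, while 22.7% had every DAPT library below. The median log2 fold change of the 10 genes was 0.75, and that of all genes tested was 0.01. Without control replicate 1, 8 of the 10 genes were called higher, against 18.0% of 15162 genes tested, since *DDIT4* no longer passed. In bulk RNA, more cells that express a gene and more RNA per cell cannot be told apart.

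**Figure D1:**
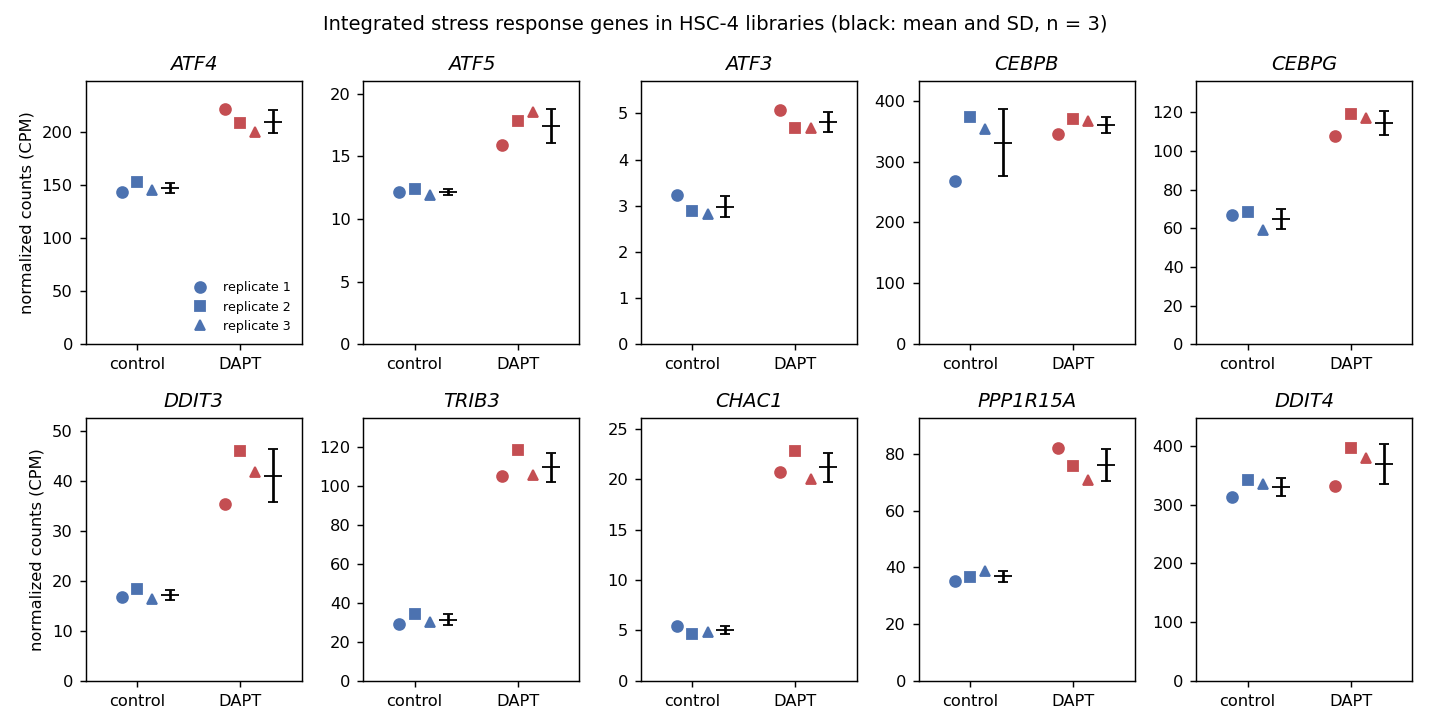
Normalized counts (CPM, vertical axes, each from 0) of the 10 genes in the 3 control (blue) and 3 DAPT (red) libraries, with replicates 1, 2 and 3 as circle, square and triangle and the mean ± SD in black. The groups are separate in 8 genes, and they overlap in *CEBPB*, where control replicate 1 is lowest at 268 CPM, and in *DDIT4*, where DAPT replicate 1 is at 331 CPM.

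In sum, the 10 genes held 892, 1045 and 998 CPM in control replicates 1, 2 and 3 and 1269, 1379 and 1323 CPM with DAPT. Most of the control sum came from *CEBPB* and *DDIT4*. *CEBPB* and *DDIT4* are also the genes whose groups overlapped. Leaving them out, the sum of the other 8 was 312, 331 and 310 CPM in the controls and 593, 613 and 578 CPM with DAPT. In each of these 8 genes every DAPT library lay above every control, so the separation of this sum was fixed by the choice.

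Short stretches of promoter are shown for 5 of the genes that rose with DAPT. They show where letters that ATF, CREB, CEBP and NF-Y proteins are known to read lie before a RefSeq start. For *CHAC1*, *CEBPG* and *DDIT3* that start lies inside the gene as annotated for counting. The window was 250 bases before to 50 bases after each start in RefSeq (GRCh38.p14), with 19 windows for the 10 genes and 35116 windows in all, searched on both strands. Capitals mark the matched letters, and each stretch is written in the direction of its gene.
CHAC1: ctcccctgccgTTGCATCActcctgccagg
CEBPG: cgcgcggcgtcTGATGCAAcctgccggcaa
ATF3: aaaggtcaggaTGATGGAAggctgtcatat
PPP1R15A: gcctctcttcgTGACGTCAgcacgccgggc
DDIT3: CCAATgccggcgtgccactttctgATTGGt

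The first 3 stretches hold TGATGNAA, the form in which the joint CEBP and ATF element is often written, in *CHAC1* on the strand opposite to the gene. They lie at chr15:40953251-40953280 (+ strand, bases -220 to -191 from the start, in an annotated exon of *CHAC1*), chr19:33374060-33374089 (+ strand, -53 to -24, in an intron of *CEBPG*) and chr1:212565205-212565234 (+ strand, -202 to -173, outside annotated genes). Of the 19 windows 3 held this motif, as did 3.62% of all windows. *PPP1R15A* has the cyclic AMP response element TGACGTCA at chr19:48872352-48872381 (+ strand, -69 to -40, outside annotated genes), the 1 window of the 19 with this motif, which was found in 1.85% of all windows. *DDIT3* has CCAAT on both strands within one stretch at chr12:57520585-57520614 (- strand, -100 to -71, in an intron of *DDIT3*), and CCAAT, the letters bound by NF-Y, was present in 8 of the 19 windows and in 34.6% of all windows. These 8 windows belong to 6 genes, since overlapping windows of *DDIT3* and of *CEBPB* hold the same sites. GTGGGAA, the letters read by the Notch effector RBPJ, was present in 2 of the 19 windows, of *ATF5* and *PPP1R15A*, and in 6.25% of all windows. The windows of *TRIB3* and *ATF4* held none of the 4 motifs. A match is a description of letters, and no binding was measured.

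*ATF4* (ENSG00000128272, chromosome 22, 39519695 to 39522685) encodes the central transcription factor of the response. It was at 143, 153 and 146 CPM in control replicates 1, 2 and 3 and at 222, 209 and 200 CPM with DAPT. All DAPT libraries lay well above the controls, and the control mean of 147 ± 5.07 CPM (SD, n = 3) rose to 210 ± 11.1 CPM (SD, n = 3). The log2 fold change was 0.51 ± 0.05 (SE, edgeR adjusted p = 1.15e-07). The 4 pseudogenes *ATF4P1*, *ATF4P2*, *ATF4P3* and *ATF4P4* held between 0 and 4 reads in any library, whereas *ATF4* itself held at least 1762.

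*ATF5* (ENSG00000169136, chromosome 19, 49928702 to 49933935) is the close relative of *ATF4* and is likewise controlled through upstream open reading frames. Its level was 12.1, 12.4 and 11.9 CPM in the controls and 15.9, 17.8 and 18.5 CPM with DAPT. The controls were nearly level, and the DAPT libraries were higher and more spread, with replicate 1 the lowest. Its log2 fold change was 0.51 ± 0.10 (SE, edgeR adjusted p = 0.000263), the same value as that of *ATF4* with a wider error. Of the exonic bases of *ATF5*, 19.5% lie opposite those of *NUP62*, whose log2 fold change was -0.19, and counting was by strand.

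*ATF3* (ENSG00000162772, chromosome 1, 212565334 to 212620777), an immediate stress-induced factor that mostly represses transcription as a homodimer, was the lowest of the 10 genes. It was counted with 52, 40 and 34 reads in the controls and 78, 64 and 61 reads with DAPT, or 3.24, 2.89 and 2.82 CPM against 5.07, 4.68 and 4.69 CPM. No control reached a DAPT library, and the log2 fold change was 0.68 with the widest error of the genes that rose (SE 0.17, edgeR adjusted p = 0.00317).

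*CEBPG* (ENSG00000153879, chromosome 19, 33373685 to 33382686) encodes a CEBP protein without a strong activation domain of its own that acts as a dimer partner of ATF4. It was at 66.7, 68.5 and 59.1 CPM in the controls and at 108, 119 and 117 CPM with DAPT. The groups were far apart, with a log2 fold change of 0.82 ± 0.06 (SE, edgeR adjusted p = 8.61e-10).

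*CEBPB* (ENSG00000172216, chromosome 20, 50190734 to 50192689), another dimer partner of ATF4 and CHOP with broad roles in differentiation and inflammation, was at 268, 373 and 353 CPM in the controls and at 345, 369 and 367 CPM with DAPT. The groups overlapped, and control replicate 1, the library with the fibroblast markers, lay below all others. DAPT and control differed by a log2 fold change of 0.12 ± 0.13 (SE, 95% confidence interval -0.20 to 0.44, edgeR adjusted p = 0.521). Without that library it was -0.011 (SE 0.05, 95% confidence interval -0.11 to 0.09, edgeR adjusted p = 0.887). The part of the fibroblast RNA in this difference was not tested.

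*DDIT3* (ENSG00000175197, chromosome 12, 57516588 to 57521737) encodes CHOP, a CEBP family factor that joins the response when stress is strong or prolonged and promotes cell death. It was at 16.7, 18.4 and 16.4 CPM in the controls and at 35.4, 45.9 and 41.6 CPM with DAPT. Each DAPT library was well above every control, and the DAPT libraries differed among themselves, with replicate 1 the lowest. The log2 fold change was 1.25 ± 0.09 (SE, edgeR adjusted p = 1.32e-09). *DDIT3* lies opposite *MARS1*, the methionyl-tRNA synthetase gene and itself an ATF4 target, with which it shares 27.2% of its exonic bases, and *MARS1* rose by 0.55 on the log2 scale. Reads were counted on each gene's own strand, and the only gene sharing exonic bases with *DDIT3* on the same strand, ENSG00000285133, held 0 reads in all libraries.

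*TRIB3* (ENSG00000101255, chromosome 20, 362835 to 397559) encodes a pseudokinase that is induced by ATF4 and CHOP and restrains ATF4 in turn. It was at 29.3, 34.4 and 30.1 CPM in the controls and at 105, 118 and 106 CPM with DAPT. The libraries of each group lay close together, and the log2 fold change of 1.81 ± 0.07 (SE) had the smallest adjusted p of the 10 genes (edgeR, 9.3e-15).

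*CHAC1* (ENSG00000128965, chromosome 15, 40952962 to 40956512) encodes a γ-glutamyl cyclotransferase that degrades glutathione. Its level was 5.48, 4.69 and 4.89 CPM in the controls and 20.7, 22.8 and 20.1 CPM with DAPT. The log2 fold change of 2.07 ± 0.11 (SE, edgeR adjusted p = 3.67e-12) was the largest of the 10 genes and placed *CHAC1* at rank 7 of 15001 genes in order of log2 fold change, where *TRIB3* stood at rank 12, *DDIT3* at rank 49 and *PPP1R15A* at rank 79. Its promoter stretch with TGATGNAA is given above, whereas none of the searched motifs was found for *TRIB3*.

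*PPP1R15A* (ENSG00000087074, chromosome 19, 48872421 to 48876058) encodes GADD34, the inducible subunit that directs a phosphatase to eIF2 and so ends the response. It was at 35.1, 36.5 and 38.8 CPM in the controls and at 81.9, 75.8 and 70.7 CPM with DAPT. Here DAPT replicate 1 was the highest library, unlike in *DDIT3* and *ATF5*. The log2 fold change was 1.05 ± 0.07 (SE, edgeR adjusted p = 8.2e-11).

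*DDIT4* (ENSG00000168209, chromosome 10, 72273924 to 72276036) encodes REDD1, a stress-induced inhibitor of the growth kinase complex mTORC1. It was at 312, 341 and 335 CPM in the controls and at 331, 397 and 379 CPM with DAPT. DAPT replicate 1 lay below control replicates 2 and 3, and the other DAPT libraries lay above all controls. The log2 fold change was 0.16 ± 0.06 (SE, edgeR adjusted p = 0.0403). This call was lost without control replicate 1 (0.13, edgeR adjusted p = 0.122), control replicate 3 (adjusted p = 0.0765), DAPT replicate 2 (adjusted p = 0.227) or DAPT replicate 3 (adjusted p = 0.137), and in DESeq2 (adjusted p = 0.0583). It was kept in the other 7 of 12 alternative fits. There the edgeR adjusted p ranged from 0.00161 without DAPT replicate 1 to 0.0441 without control replicate 2, and was 0.0174 with the replicate number as a block. An antisense gene, ENSG00000269926, covers 41.2% of its exonic bases and held 20 to 55 reads in any library.

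**Figure D2:**
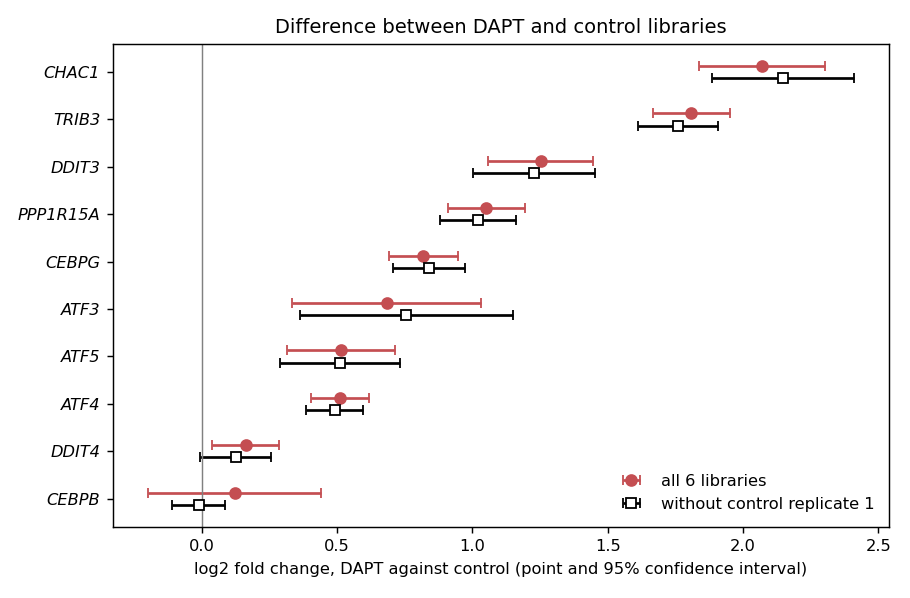
Log2 fold change of DAPT against control (horizontal axis) for the 10 genes, with 95% confidence intervals, from all 6 libraries (red circles) and without control replicate 1 (open squares). The order from *CHAC1* (2.07) down to *CEBPB* (0.12) is that of all libraries. The interval of *CEBPB* includes 0 in both fits, and that of *DDIT4* only without control replicate 1.

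Per length, as RPKM (CPM after TMM scaling divided by the exonic length in kilobases), the 10 genes spanned a wide range of levels, from 0.738 ± 0.0559 RPKM for *ATF3* to 169 ± 28.5 RPKM for *CEBPB* in the controls (SD, n = 3). In the controls the order from the highest level was *CEBPB*, *DDIT4* (160 ± 7.47 RPKM), *ATF4* (58.6 ± 2.02), *CEBPG* (16.0 ± 1.22), *DDIT3* (13.1 ± 0.834), *PPP1R15A* (12.0 ± 0.622), *TRIB3* (10.3 ± 0.907), *ATF5* (4.21 ± 0.0857), *CHAC1* (2.45 ± 0.200) and *ATF3*. *CEBPB* and *DDIT4* overlapped between libraries, as did *DDIT3* and *PPP1R15A*, and the other neighbours were separate. With DAPT the same 3 genes led, *CEBPB* at 184 ± 6.95, *DDIT4* at 180 ± 16.4 and *ATF4* at 83.6 ± 4.40 RPKM. *TRIB3* moved from place 7 to place 4 at 36.2 ± 2.45 RPKM, while *DDIT3* (31.4 ± 4.05), *CEBPG* (28.2 ± 1.52) and *PPP1R15A* (24.8 ± 1.83) followed. Among these 4 genes, each overlapped between libraries with the next in the order. *CHAC1* passed *ATF5*, at 10.3 ± 0.703 against 6.02 ± 0.467 RPKM, and *ATF3* remained last at 1.19 ± 0.0548 RPKM. The places were identical when the levels were expressed as TPM, which scales lengths first. In both groups, then, *CEBPB* and *DDIT4*, whose counts overlapped between the groups, were the genes with the most reads per length.

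**Figure D3:**
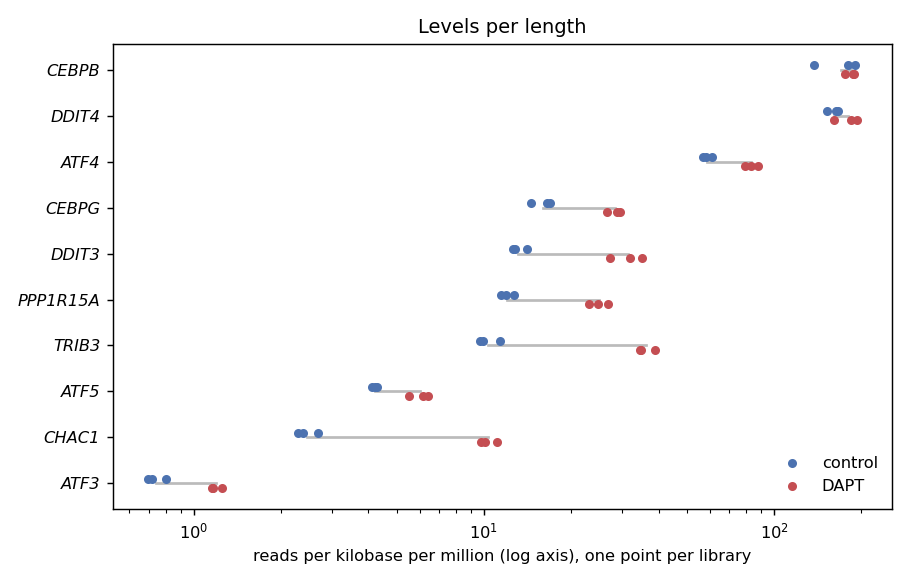
Level per length (RPKM on a log axis, 1 point per library) of the 10 genes, in the order of the control means, with control in blue, DAPT in red and a grey line between the group means. *CEBPB* and *DDIT4* are highest with short lines, whereas *TRIB3* moves from 10.3 to 36.2 and *CHAC1* from 2.45 to 10.3 RPKM.

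Within each library, the counts of the other 9 genes were set against those of *ATF4*, a ratio that library scaling cannot change. The log2 ratio of *CHAC1* to *ATF4* was -4.70, -5.02 and -4.89 in the controls and -3.42, -3.19 and -3.31 with DAPT, a rise of 1.56. That of *TRIB3* was -2.29, -2.15 and -2.27 in the controls and -1.08, -0.82 and -0.92 with DAPT, a rise of 1.30. *DDIT3* (0.74), *PPP1R15A* (0.54) and *CEBPG* (0.31) were likewise higher relative to *ATF4*, with every DAPT library above every control. *DDIT4* (-0.35) and *CEBPB* (-0.38) were lower relative to *ATF4* in every DAPT library, and for *DDIT4* the DAPT values were 0.58, 0.93 and 0.92 against 1.12, 1.16 and 1.20 in the controls. For each of these 7 genes the two-sided exact permutation p was 0.1, the smallest that 3 against 3 libraries can give, so that no ratio could pass 0.05 (0.129 after Benjamini-Hochberg adjustment over 9 ratios). The ratio of *ATF3* differed by 0.18 (exact permutation p = 0.2) and that of *ATF5* by 0.00 (exact permutation p = 0.9), with overlap between the groups in both.

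**Figure D4:**
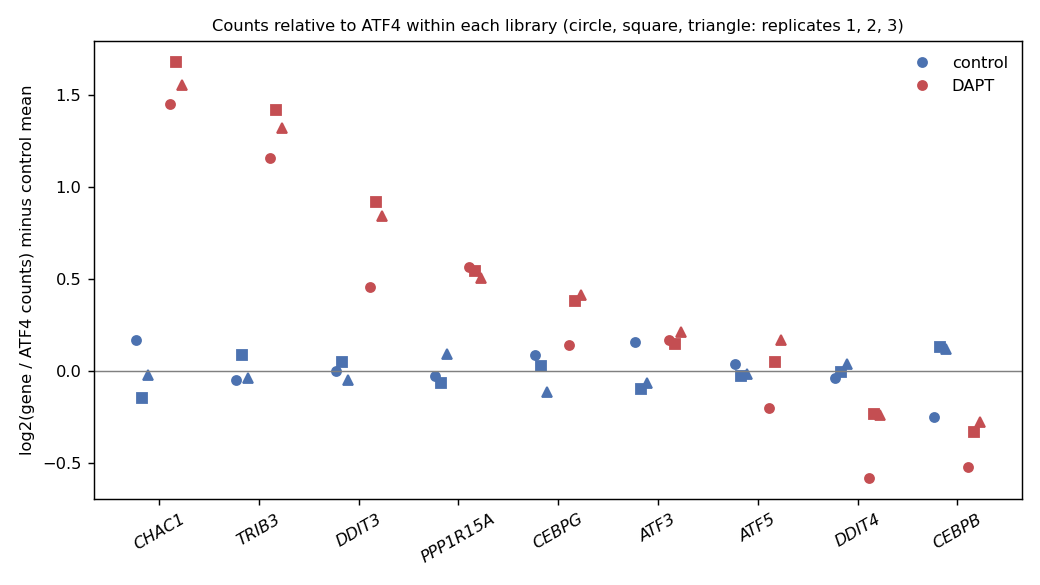
Log2 ratio of each gene's counts to the *ATF4* counts of the same library, minus the control mean (vertical axis), with control in blue and DAPT in red. *CHAC1*, *TRIB3*, *DDIT3*, *PPP1R15A* and *CEBPG* lie above their controls, *ATF3* and *ATF5* overlap with them, and *DDIT4* and *CEBPB* lie below.

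All 22 genes for the eIF2 kinases, eIF2, its exchange factor eIF2B and their regulators were tested. At an adjusted p under 0.05, 6 were higher (27.3%, against 17.2% of all genes tested) and none was lower (against 18.0%), or 5 higher and 1 lower without control replicate 1, and the median log2 fold change was 0.00. Among the 4 kinases, *EIF2AK2* (PKR, the sensor of double-stranded RNA) was at 299, 251 and 248 CPM in the controls and at 362, 337 and 309 CPM with DAPT. It rose by a log2 fold change of 0.34 (edgeR adjusted p = 0.00363), with all DAPT libraries higher and control replicate 1 closest to them. *EIF2AK3* (PERK, the sensor of the endoplasmic reticulum) passed at 0.16 (edgeR adjusted p = 0.0416), but it did not in DESeq2 (adjusted p = 0.109), with the replicate number as a block (edgeR adjusted p = 0.0594) or with no filter on low counts (edgeR adjusted p = 0.0684). It also lost its call without any 1 library other than control replicate 2, with edgeR adjusted p from 0.0587 without DAPT replicate 2 to 0.196 without DAPT replicate 3. *EIF2AK1* (HRI, the heme-regulated kinase, log2 fold change 0.08) and *EIF2AK4* (GCN2, the sensor of uncharged tRNA, 0.06) did not pass, with 95% confidence intervals of -0.02 to 0.17 and -0.05 to 0.16, although *EIF2AK1* passed when libraries were scaled by total counts alone (0.12, edgeR adjusted p = 0.0371). *PPP1R15B*, the constitutive counterpart of *PPP1R15A*, had a control mean of 94.9 ± 3.28 CPM and a DAPT mean of 117 ± 0.950 CPM (SD, n = 3 each) and rose by 0.30 on the log2 scale (edgeR adjusted p = 0.000108). The GCN2 inhibitor *IMPACT* (0.23), the PERK and PKR inhibitor *DNAJC3* (0.21) and the eIF2 β subunit *EIF2S2* (0.16) also rose, the last not without control replicate 3 (0.14, edgeR adjusted p = 0.0752). The α subunit gene *EIF2S1* was at -0.10 (95% confidence interval -0.20 to 0.01).

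Among the paralogs of the 4 regulators, *PPP1R15B* alone was called higher. *TRIB1* was at 25.1, 24.8 and 23.9 CPM in the controls and 25.5, 21.0 and 20.4 CPM with DAPT (log2 fold change -0.14, 95% confidence interval -0.32 to 0.04), and *TRIB2* was at -0.06 (-0.30 to 0.19). *CHAC2*, the constitutive relative of *CHAC1*, was at -0.27 (edgeR adjusted p = 0.111). Both *TRIB1* and *CHAC2* passed as lower when DAPT replicate 1 was left out (-0.25 and -0.41, edgeR adjusted p = 0.034 and 0.0297). *DDIT4L* had 0 counts in all libraries.

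Among 21 other ATF, CREB and CEBP family genes, 17 were tested, of which 10 were higher (58.8%, against 17.2% of all genes tested) and none was lower (against 18.0%), with a median log2 fold change of 0.20. Without control replicate 1, 11 were higher and 1 was lower. *JDP2*, which encodes a repressor related to ATF3 and Jun, rose from 16.9, 16.9 and 17.1 CPM to 37.8, 34.0 and 35.1 CPM, with almost no spread among the controls (log2 fold change 1.07, edgeR adjusted p = 5.69e-10). *CREB5* had the largest log2 fold change of this list at 2.16 (edgeR adjusted p = 0.000203), but at low levels. It was at 0.311, 0.144 and 0.580 CPM in the controls and 1.56, 1.46 and 1.54 CPM with DAPT. These were 5, 2 and 7 reads against 24, 20 and 20. Every control held fewer than 10 reads of *CREB5*. It therefore passed the low-count filter through its DAPT libraries alone and could hardly be called lower. Requiring 10 or more reads per library removed it, and 9 genes of this list were then higher. *CREB3L2* (0.43), *CREB3* (0.29) and *ATF6* (0.36), which encode membrane-bound factors released by proteolysis, rose less. The CEBP relatives *CEBPA* (-0.03) and *CEBPD* (-0.02) did not pass. *CEBPD*, like *CEBPB*, was lowest in control replicate 1, at 22.2 CPM against 35.5 and 34.9 CPM in the other controls, and without that library it was called lower with DAPT (-0.22, edgeR adjusted p = 0.0201).

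Of 48 textbook targets of ATF4 and CHOP, 45 were tested. The list was not divided by factor, so its counts do not describe the CHOP targets alone. At an adjusted p under 0.05, 35 were higher (77.8%, against 17.2% of all genes tested, and 34 without control replicate 1). Of the tested targets, 1 was lower (2.2%, against 18.0%) and 7 were called at least 2-fold higher (against 0.600% of all genes tested). The median log2 fold change was 0.47. *INHBE*, which encodes an activin subunit secreted under stress, was at 0.934, 1.52 and 0.497 CPM in the controls and 3.96, 5.41 and 3.84 CPM with DAPT (log2 fold change 2.13, edgeR adjusted p = 3.29e-06). *ASNS*, asparagine synthetase and a standard readout of ATF4, was at 1.18, 2.09 and 1.41 CPM in the controls and 6.30, 6.73 and 5.30 CPM with DAPT (log2 fold change 1.97, edgeR adjusted p = 1.7e-07). Both genes were low in the controls and clearly separate from them with DAPT. *INHBE* held 15, 21 and 6 reads in the controls and 61, 74 and 50 with DAPT. It is counted among both the 35 and the 7. Requiring 10 or more reads per library removed *INHBE*, and 34 targets were then higher. The stress hormone genes *GDF15* (1.86) and *ADM2* (1.65) and the cystine transporter gene *SLC7A11* (1.58) also rose. The gene that fell was *ERO1A*, an oxidase of the endoplasmic reticulum, from 514 ± 16.3 to 441 ± 11.1 CPM (SD, n = 3 each, log2 fold change -0.22, edgeR adjusted p = 0.000967).

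The ATF6 and XBP1 arm of the unfolded protein response, which raises chaperones and degradation factors of the endoplasmic reticulum, held genes called in both directions. Of its 22 genes, 12 were higher (54.5%, against 17.2% of all genes tested) and 3 were lower (13.6%, against 18.0%, and 4 without control replicate 1), none of them at 2-fold, and the median log2 fold change was 0.16. *ERN1*, the gene of the sensor IRE1, rose most (0.70, edgeR adjusted p = 4.17e-07), followed by the degradation genes *SEL1L* (0.54) and *HERPUD1* (0.48) and by *HYOU1* and *XBP1* (0.34 each). The chaperone gene *HSPA5*, which encodes BiP, was at 1937, 1904 and 1801 CPM in the controls and at 2088, 2218 and 2167 CPM with DAPT. This separation was complete but small (log2 fold change 0.20, edgeR adjusted p = 0.00322). In contrast, *SDF2L1* (-0.49), *MANF* (-0.47) and *CALR* (-0.30), which encode proteins of the endoplasmic reticulum, fell. The call of *SDF2L1* was lost without control replicate 3 (-0.46, edgeR adjusted p = 0.106), DAPT replicate 1 (-0.39, adjusted p = 0.0884) or DAPT replicate 2 (-0.51, adjusted p = 0.0747).

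Around *DDIT4*, 18 genes with inputs into mTORC1 were listed and 17 tested, of which 3 were higher (17.6%, against 17.2% of all genes tested) and 2 were lower (11.8%, against 18.0%, and 1 without control replicate 1). The median log2 fold change was 0.05, and these shares lie near or below those of all genes. The sestrins, inhibitors of mTORC1 upon amino acid shortage, moved in different directions. *SESN2*, also an ATF4 target, rose from 17.3, 19.2 and 16.2 CPM to 29.2, 32.5 and 31.3 CPM (log2 fold change 0.82, edgeR adjusted p = 1.08e-07). *SESN3* fell from 281, 237 and 247 CPM to 142, 141 and 154 CPM (log2 fold change -0.81, edgeR adjusted p = 2.44e-09). *SESN1* was called lower (-0.25, edgeR adjusted p = 0.0473) but not without control replicate 1 (-0.18, edgeR adjusted p = 0.171), control replicate 3 (adjusted p = 0.0654), DAPT replicate 1 (adjusted p = 0.245) or DAPT replicate 2 (adjusted p = 0.138). Nor was *SESN1* called in DESeq2 (adjusted p = 0.12), with total-count scaling (edgeR adjusted p = 0.106) or with the replicate number as a block (edgeR adjusted p = 0.0665). *TSC2* (0.33) and *MTOR* (0.18) rose, the latter not without control replicate 3 (edgeR adjusted p = 0.0824), DAPT replicate 1 (adjusted p = 0.108) or DAPT replicate 2 (adjusted p = 0.087), nor in DESeq2 (adjusted p = 0.0686).

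Around *CHAC1*, 13 genes of glutathione metabolism were listed and 11 tested, of which 2 were higher (18.2%, against 17.2% of all genes tested) and 3 were lower (27.3%, against 18.0%), with a median log2 fold change of -0.05. Apart from *SLC7A11*, which supplies cystine for glutathione synthesis, the γ-glutamyl transferase family gene *GGT7* rose (0.24, edgeR adjusted p = 0.00725). *GGT1* was at 2.74, 1.88 and 2.07 CPM in the controls and 0.974, 0.951 and 1.38 CPM with DAPT (-1.03, edgeR adjusted p = 0.00504), and these values are uncertain, since *GGT1* has near-identical copies with which reads may be shared. *GGCT*, which encodes another γ-glutamyl cyclotransferase, fell by 0.46 on the log2 scale (edgeR adjusted p = 3.71e-06), and the glutathione reductase gene *GSR* was also lower (-0.22). The glutathione synthesis genes *GCLC* (0.08), *GCLM* (-0.02) and *GSS* (0.05) did not pass.

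**Figure D5:**
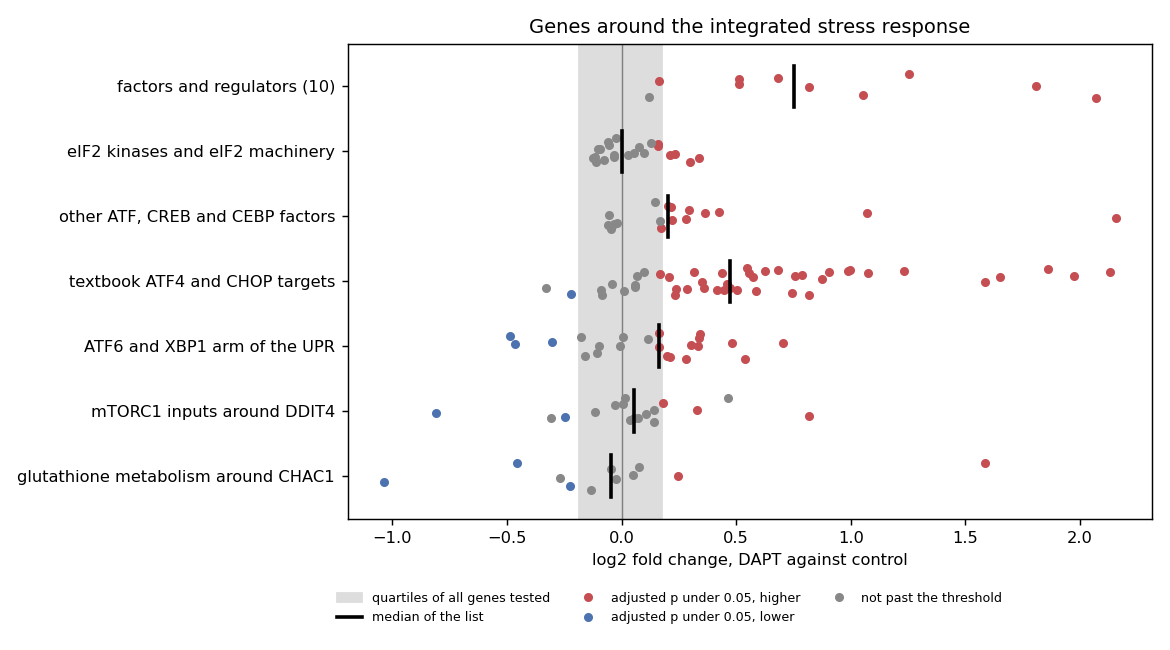
Log2 fold change of DAPT against control (horizontal axis) for each tested gene of the 10 factors and regulators and of 6 related lists, red where called higher, blue where called lower and grey otherwise, with the list median as a black bar and the quartiles of all genes tested as a grey band. The medians of the 10 genes (0.75), of the ATF4 and CHOP targets (0.47) and of the other ATF, CREB and CEBP factors (0.20) lie to the right of the band, and that of the eIF2 machinery (0.00) lies inside it.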

How the data were processed

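RNA from 6 HSC-4 libraries (3 control, 3 DAPT) was sequenced as single-end reads. The authors trimmed the reads with Trim Galore and mapped them with HISAT2 (GRCh38). Per the file headers, exonic reads were counted by strand with featureCounts 1.6.3 and Ensembl release 96, and the deposited values are raw counts per gene. The submitters' processing notes also name FastQC, bcl2fastq 2.19, HTSeq and DESeq2. Groups and replicate numbers came from the sample labels, and dose and time from the study's methods.

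Symbols were assigned by identifier (58472 of 58884 genes matched GENCODE 44). Counts were filtered by edgeR's rule (minimum count 10), scaled by TMM and tested in R 4.3.3 with the robust quasi-likelihood F test of edgeR 4.0.16, the tool the study used, with Benjamini-Hochberg adjustment over 15001 genes and a threshold of 0.05. Standard errors and 95% confidence intervals were derived from the F statistic. The procedure was tested on simulated data. For ratios, 0.5 was added to each count. The limit of 3 counts covers counting error only. Replicate libraries differed by more than sampling noise (chi-square per gene 1.58 to 5.68).

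The 10 genes and the related lists, written from general knowledge, were chosen with earlier results of these data known. The text names all 10 genes, their paralogs and pseudogenes, the eIF2 kinases, *HSPA5*, *XBP1*, *ASNS* and *HES1*, and from each list up to 5 genes per direction that were called without overlap. Other genes (*VIM*, *COL1A1*, *COL1A2*, *CD3E*, *CEBPA*, *CEBPD*, *CREB3L1*, *EIF2S1*, *SESN1*, *GCLC*, *GCLM*, *GSS*, *MARS1*, *NUP62*) were named after their values were seen. Alternatives were RLE and total-count scaling, DESeq2 1.42.0, other filters, a replicate block and each library left out. Protein sequences were not analysed here.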

Additional observations from a re-analysis of the deposited data

How the results depend on the processing

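In all 12 alternative fits, *ATF4*, *ATF5*, *ATF3*, *CEBPG*, *DDIT3*, *TRIB3*, *CHAC1* and *PPP1R15A* were called higher. The exceptions among the 10 genes were *CEBPB*, called in none, and *DDIT4*, called in 7 of 12. Leaving out 1 library at a time gave log2 fold changes of 0.11 to 0.24 for *DDIT4* and of -0.011 to 0.21 for *CEBPB*, the lowest being the reversal without control replicate 1. DESeq2 gave 0.16 for *DDIT4* (adjusted p = 0.0583). Of the 10 genes, 4 were at least 2-fold higher, and 3 without DAPT replicate 1. Counts of genes called lower ranged over the left-out libraries from 0 to 1 in the eIF2 list and in the ATF, CREB and CEBP list. They ranged from 0 to 2 among the paralogs, 1 to 2 in the mTORC1 list, 2 to 4 in the ATF6 and XBP1 list and 3 to 4 in the glutathione list. Counts called higher ranged from 4 to 6 in the eIF2 list and 9 to 11 in the ATF, CREB and CEBP list. They ranged from 31 to 34 among the targets, 9 to 12 in the ATF6 and XBP1 list and 2 to 3 in the mTORC1 list. Without the low-count filter 1 ATF, CREB and CEBP gene, *CREB3L1*, was called lower, on 51 reads in control replicate 1 and 2 to 7 elsewhere. The mTORC1 list had 1 lower gene, *SESN3*, under total-count scaling, in DESeq2 and with the replicate block. Total-count scaling also moved the share of higher genes among all calls from 48.7% to 61.5% and the median of all genes from 0.01 to 0.06, and DESeq2 called 1802 genes higher and 2172 lower. The causes of these shifts were not tested.

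The replicate block called 2558 genes higher and 2737 lower, against 2574 and 2707 without it, and the same 9 of the 10 genes. With the block the edgeR adjusted p was 0.0174 for *DDIT4* and 0.126 for *CEBPB*. Libraries with the same number deviated from their groups with correlations of 0.0322, 0.0727 and 0.00588 across 13004 genes. Control replicates 1 and 2 correlated best with their own number, but control replicate 3 with DAPT replicate 1. Correlations this weak cannot settle whether the replicate numbers pair the libraries. Depth limits genes with few reads, such as *CREB5*, *CREB3L1*, *GGT1*, *INHBE*, *ASNS* and *ATF3*.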
